A study of Mus musculus with 4 samples.

Results

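The genes described here encode receptors and Smad proteins of transforming growth factor beta (TGF-beta) and of the bone morphogenetic proteins (BMPs). They were chosen by name: Tgfbr1, Tgfbr2, Bmpr1a, Bmpr2, Acvr1, Smad2, Smad3, Smad4, Smad6 and Smad7. Each of the 10 symbols matched 1 of the 23390 gene models in the count table, and all 10 had enough reads to be among the 13214 models tested. The cells were cultures of wild-type (Wt) C57BL/6J mouse bone marrow macrophages driven to become osteoclasts, the multinucleated cells that resorb bone. Marrow was first grown for 3 days in medium conditioned by L929 cells, a source of the growth factor M-CSF equal to 20 ng/ml of the recombinant protein. Both groups then received 40 ng/ml RANKL, the cytokine that starts osteoclast formation, with the solvent DMSO (2 libraries) or with 10 µM BMS-582949 (2 libraries), and RNA was taken at day 4 per the design text. The sources differ on the schedule: exposure lasted 4 days by the treatment protocol, whereas the design text has 3 days and then fresh medium. BMS-582949 is an inhibitor of the kinase p38α. How many mice or separate cultures stand behind each pair of libraries is not in the labels, so p-values measure the spread between these samples only, which may be technical.

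As background, a ligand of this family brings together a type II and a type I receptor, both of them serine/threonine kinases. The type II receptor activates the type I receptor, which phosphorylates receptor-regulated Smads. These bind Smad4 and enter the nucleus, while Smad6 and Smad7 inhibit the pathway. TGF-beta is stored in bone matrix and released during resorption, and it acts on osteoclast precursors as well as on bone-forming cells. The receptors can also signal to p38 through the kinase TAK1, encoded by Map3k7.

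Total counts ranged from 35331889 to 39255925 per library. The label "osteoclasts" was checked against 11 markers, all of which were detected in every library and all of which were called lower with BMS-582949. Their summed share of the library total, in CPM (counts per 1e6 counts), was 98620 and 101600 under DMSO against 15550 and 15540 in treated libraries. Of 10 macrophage markers, 6 were called higher and 2 lower, with sums of 9303 and 9414 against 12840 and 13470 CPM. The rise of the sum lies in Lyz2, which had 150377 and 151861 counts under DMSO against 371752 and 372819 in treated libraries. The 2 called lower were next in counts: Cd68 (106994 and 109995 against 57007 and 61573) and Csf1r (58613 and 65268 against 39601 and 37713). The sum therefore does not describe the list as a whole. Stromal and osteoblast markers were also present: the 12 listed genes summed to 697 and 633 CPM in DMSO and 590.0 and 575 CPM with the compound, and 7 of the 10 tested were called lower and 2 higher (4 lower with library size only). Within this list Col1a1 had 9085 to 10080 counts per library. Alpl had 477 and 417 counts in DMSO against 151 and 151 in treated libraries, and Sp7 had 211 and 181 against 107 and 95. The 2 called higher were Runx2, with 100 and 139 counts in DMSO against 260 and 260, and Thy1, with 46 and 40 against 145 and 90. Bglap, a defining osteoblast gene, was at 0 counts in every library, and Lepr, a marker of marrow stroma, had 6 to 12. The 7 endothelial markers summed to at most 4.84 CPM, with Tek at 0 in 3 libraries and Emcn and Tie1 at 0 in 2. The 7 neutrophil markers summed to at most 17.4 CPM, with Ly6g at 0 in every library. The part of these shifts in cell markers in the results below was not tested. In bulk cultures, fewer cells of a type and less RNA per cell cannot be told apart.

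With BMS-582949, RNA of both TGF-beta receptors fell to 33.95% (Tgfbr1) and 29.4% (Tgfbr2) of the DMSO level, whereas RNA of the BMP type I receptor Acvr1, the receptor-regulated Smads Smad2 and Smad3 and the inhibitor Smad6 rose. The other inhibitor, Smad7, fell. Bmpr1a, Bmpr2 and Smad4 did not pass the test. Calls rest on edgeR's quasi-likelihood test, fitted on all tested genes, at an adjusted p (Benjamini-Hochberg) below 0.05. Of the 10 members 7 were called, 4 higher and 3 lower, beside 60.2% of all tested genes called, 30.5% higher and 29.7% lower. The share of members called was thus near that of all genes. Changes of at least 2-fold were called for 3 members (Tgfbr1, Tgfbr2 and Smad6) and for 21.3% of all tested genes. The libraries of the groups did not overlap for 8 members, and for 80.2% of all tested genes. The median log2 fold change was 0.23 over the members and 0.03 over all tested genes. Changes are relative to TMM scaling. Scaling by library size only moved the median of all genes to 0.41, and 5 members were then called higher and 2 lower.

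**Figure D1:**
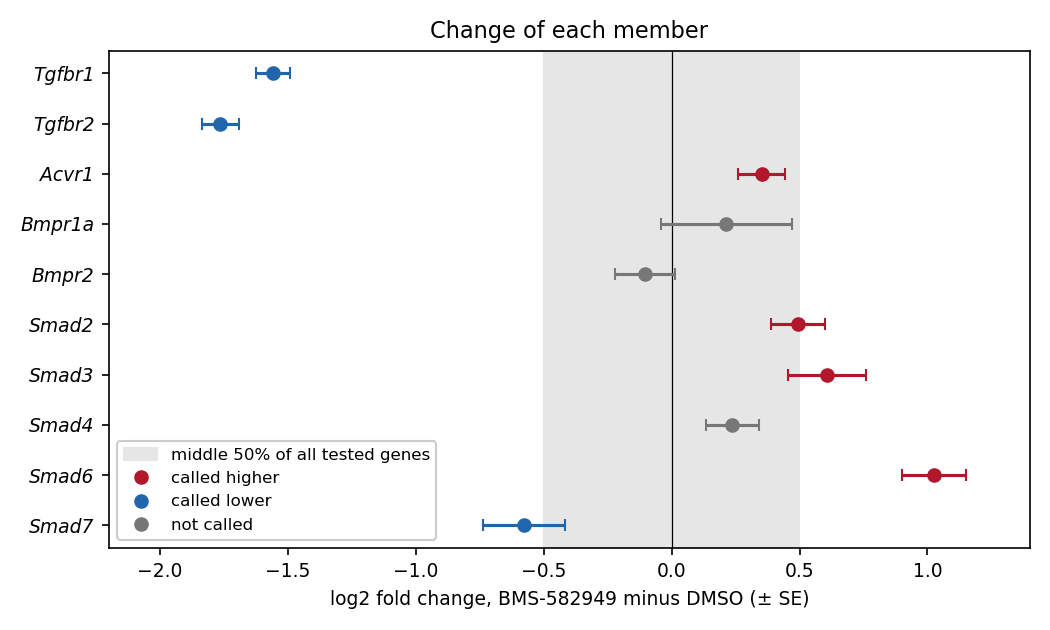
Log2 fold change of each member (x axis, BMS-582949 minus DMSO, bars ± SE from the edgeR fit, 2 libraries per group), with the middle 50% of all tested genes (-0.50 to 0.50) shaded in grey. Tgfbr1 (-1.56) and Tgfbr2 (-1.77) lie far to the left, Smad6 (1.02) lies farthest to the right, and Bmpr1a, Bmpr2 and Smad4 are drawn as not called.

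Tgfbr1 encodes the type I receptor of TGF-beta (chromosome 4, 47353222 to 47414931, plus strand, GRCm38, GENCODE M21), and Tgfbr2 encodes its type II receptor (chromosome 9, 116084293 to 116175360, minus strand). Because the pair fell together while Smad6 rose, the 250 bases before the transcript start of each are shown, from RefSeq on GRCm38.p6, 5′ to 3′ along the gene. A second annotated start of Tgfbr1 is not shown. The windows span chr4:47352972-47353221 (plus strand) for Tgfbr1, chr9:116175364-116175613 (minus strand) for Tgfbr2 and chr9:64022060-64022309 (minus strand) for Smad6. Capitals mark matches, on either strand, to the motifs searched: the GC box GGGCGG bound by Sp1, the Smad element CAGAC, and the AP-1 site TGANTCA.
Tgfbr1: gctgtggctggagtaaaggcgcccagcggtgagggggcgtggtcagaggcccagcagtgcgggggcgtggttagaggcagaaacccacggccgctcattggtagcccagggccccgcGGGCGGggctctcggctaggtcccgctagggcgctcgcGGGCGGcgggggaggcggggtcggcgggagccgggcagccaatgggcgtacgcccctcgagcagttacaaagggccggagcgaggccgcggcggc
Tgfbr2: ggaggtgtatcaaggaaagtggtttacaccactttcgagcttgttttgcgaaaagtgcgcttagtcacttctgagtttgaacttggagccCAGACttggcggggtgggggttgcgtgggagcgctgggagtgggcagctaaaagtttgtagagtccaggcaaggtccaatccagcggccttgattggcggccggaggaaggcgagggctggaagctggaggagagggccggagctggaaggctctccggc
Smad6: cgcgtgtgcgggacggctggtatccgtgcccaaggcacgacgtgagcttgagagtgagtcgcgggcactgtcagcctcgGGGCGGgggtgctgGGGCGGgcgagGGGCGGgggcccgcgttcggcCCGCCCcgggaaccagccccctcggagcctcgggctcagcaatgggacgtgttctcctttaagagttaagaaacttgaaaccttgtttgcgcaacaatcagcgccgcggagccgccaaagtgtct

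In these windows Tgfbr1 held 2 GC boxes, Smad6 held 4, and Tgfbr2 held 1 Smad element and no GC box. None of the 3 held TGANTCA, and no matches overlapped. Of all 32851 promoter windows of this length, 32.7% held GGGCGG, 42.2% CAGAC and 6.75% TGANTCA. The G and C content was 74.8% for Tgfbr1, 58.4% for Tgfbr2 and 66.8% for Smad6. A match is a description of letters and does not show that a factor binds. Entries were found for 7 of the 10 members. GC boxes were also found in the windows of Acvr1 (6, some overlapping), Bmpr1a (4), Smad3 (2) and Bmpr2 (1). The windows of Acvr1, Bmpr1a and Bmpr2 lie inside the GENCODE M21 interval of their gene, so by that annotation they do not precede its outermost start. For Bmpr2, the bases that follow the window were not found near the start of any of its GENCODE transcripts. The window of the second Tgfbr1 start held 1 Smad element and no GC box.

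Tgfbr1 stood at 329.6 and 305 CPM (TMM-scaled, as are all CPM of single genes) under DMSO, against 109 and 106 CPM with BMS-582949. The DMSO libraries lay well above the treated ones, with no overlap. The mean went from 317 ± 17.5 to 108 ± 2.48 CPM (SD, n = 2 each), and the log2 fold change was -1.56 ± 0.07 (SE, edgeR adjusted p = 1.1e-09), or 2.95-fold lower. Tgfbr2 stood at 338 and 381 CPM in DMSO and at 103 and 108 CPM in the treated libraries. Its groups were separated as clearly as those of Tgfbr1. The mean of Tgfbr2 went from 359.6 ± 30.4 to 106 ± 3.63 CPM (SD, n = 2 each), and the log2 fold change was -1.77 ± 0.07 (SE, edgeR adjusted p = 9.5e-10), or 3.40-fold lower. Of all tested genes, 8.03% changed at least as much in either direction as Tgfbr2, and 10.9% at least as much as Tgfbr1. Each gene was called lower under all 14 alternative fits, with log2 fold changes from -1.72 to -1.18 for Tgfbr1 and from -1.85 to -1.38 for Tgfbr2. Osteoclast markers fell in the same libraries by a median of 2.98 on the log2 scale.

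**Figure D2:**
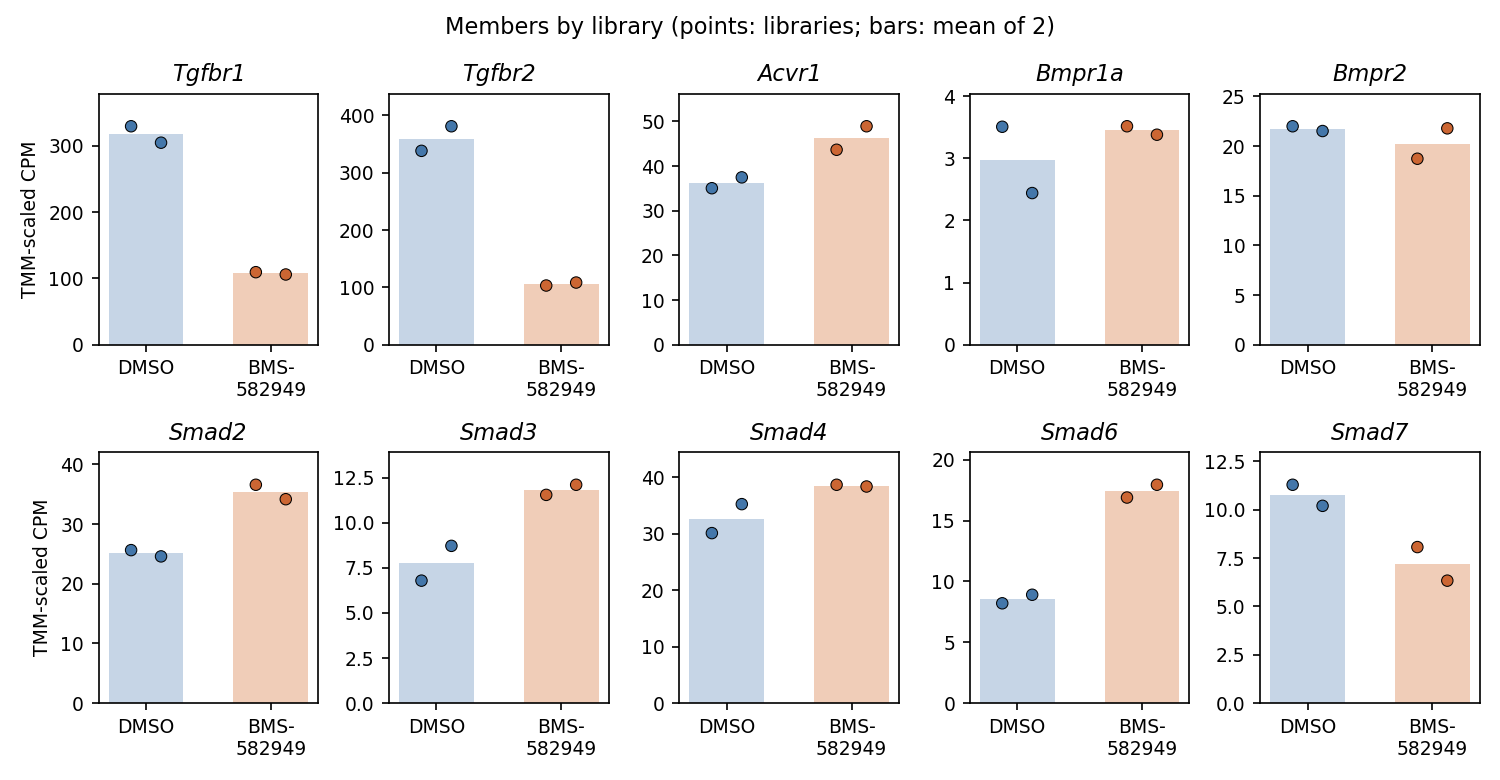
TMM-scaled CPM of the 10 members (y axes from 0, each with its own scale) in the DMSO (blue) and BMS-582949 (orange) libraries. Points are single libraries and bars are means of 2. The points of Tgfbr1 and Tgfbr2 drop from above 300 to near 110 CPM, those of Smad6 rise from near 9 to near 17 CPM, and those of Bmpr1a and Bmpr2 overlap between groups.

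Acvr1, Bmpr1a and Bmpr2 changed less than Tgfbr1 and Tgfbr2. Acvr1 encodes a type I receptor for BMPs and activins, also known as ALK2 (chromosome 2, 58388644 to 58567157, minus strand). Its level was 35.03 and 37.5 CPM in DMSO and 43.6 and 48.9 CPM in the treated libraries. Both treated libraries were the higher, by 1.28-fold on average (log2 fold change 0.35 ± 0.09 SE, edgeR adjusted p = 0.0055). Bmpr1a, the gene of a type I BMP receptor also called ALK3 (chromosome 14, 34410734 to 34503341, minus strand), was the lowest member at 3.51 and 2.44 CPM in DMSO and 3.52 and 3.38 CPM with the compound. These values overlapped (log2 fold change 0.21 ± 0.26 SE, edgeR adjusted p = 0.50). They rest on 77 to 159 counts per library, and without DMSO replicate 2 the change was -0.02, so no difference was detectable at this depth. Exons of Bmpr1a overlap those of the model Gm17110 over 4.57% of their length, and whether counting used strand is not given in the sources used here. Bmpr2 encodes the type II BMP receptor (chromosome 1, 59763400 to 59879014, plus strand). It was at 22 and 21.5 CPM in DMSO and at 18.7 and 21.8 CPM in treated cultures. The groups overlapped (log2 fold change -0.10 ± 0.12 SE, edgeR adjusted p = 0.47), and the sign turned with library size only (0.28).

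Smad2 and Smad3 are the receptor-regulated Smads of TGF-beta and activin signals, and both rose. Smad2 (chromosome 18, 76241580 to 76310963, plus strand) went from 25.6 and 24.6 CPM to 36.6 and 34.2 CPM. The treated libraries were higher without overlap, by 1.41-fold (log2 fold change 0.49 ± 0.11 SE, edgeR adjusted p = 0.0014). Smad3 (chromosome 9, 63646767 to 63757994, minus strand) was lower in level, at 6.79 and 8.72 CPM under DMSO against 11.5 and 12.1 CPM in treated libraries. It too showed no overlap, with a mean 1.52-fold higher (log2 fold change 0.61 ± 0.15 SE, edgeR adjusted p = 0.0044). Smad4, the partner shared by TGF-beta and BMP signals (chromosome 18, 73639009 to 73703780, minus strand), stood at 30.1 and 35.2 CPM in DMSO and at 38.7 and 38.4 CPM in treated libraries. Both treated values lay above both DMSO values, but the DMSO libraries differed from each other by more than the nearer DMSO library differed from the treated ones. The log2 fold change of Smad4 was 0.24 ± 0.10 (SE, edgeR adjusted p = 0.067). Across the alternatives its adjusted p ranged from 0.000265 to 0.40, and it was called higher under 5 of 14.

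The inhibitory Smads moved in opposite directions. Smad6, which acts mainly on BMP signals (chromosome 9, 63953076 to 64022059, minus strand), was at 8.20 and 8.91 CPM under DMSO against 16.9 and 17.9 CPM in treated libraries. Each treated library held about 2-fold the DMSO level, with a log2 fold change of 1.02 ± 0.12 (SE, edgeR adjusted p = 1.5e-05), the largest rise among the members. Smad7, which inhibits TGF-beta and BMP signals (chromosome 18, 75367529 to 75395935, plus strand), was at 11.3 and 10.2 CPM in DMSO and at 8.07 and 6.33 CPM in treated cultures. Its treated libraries were both lower, and they differed from each other more than the DMSO libraries did. The log2 fold change of Smad7 was -0.58 ± 0.16 (SE, edgeR adjusted p = 0.0079). This call ended without BMS-582949 replicate 2 (log2 fold change -0.43, adjusted p = 0.054) and with library size only (-0.19, adjusted p = 0.32).

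Ratios between members within a library do not depend on scaling. With 2 libraries against 2, the smallest two-sided p an exact permutation test can give is 0.333, so none of the 6 ratios compared could pass a threshold of 0.05. Smad7 stood to Smad6, in counts per kilobase of exon, at 0.976 and 0.812 under DMSO against 0.339 and 0.250 in treated libraries. The ratio was thus near 1 in DMSO and 3.06-fold lower with the compound, with no overlap (exact permutation p = 0.333, 0.667 after Benjamini-Hochberg adjustment over the 6). Tgfbr2 to Tgfbr1 was 0.819 and 0.998 under DMSO against 0.753 and 0.817 in treated libraries. The groups did not overlap, by a narrow margin (exact permutation p = 0.333, adjusted 0.667). Smad4 to the sum of Smad2 and Smad3 was 1.96 and 2.17 in DMSO and 1.67 and 1.70 in treated libraries (exact permutation p = 0.333, adjusted 0.667). The ratios Bmpr2 to Bmpr1a, Acvr1 to Bmpr1a and Smad3 to Smad2 overlapped between groups (exact permutation p from 0.667 to 1).

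**Figure D3:**
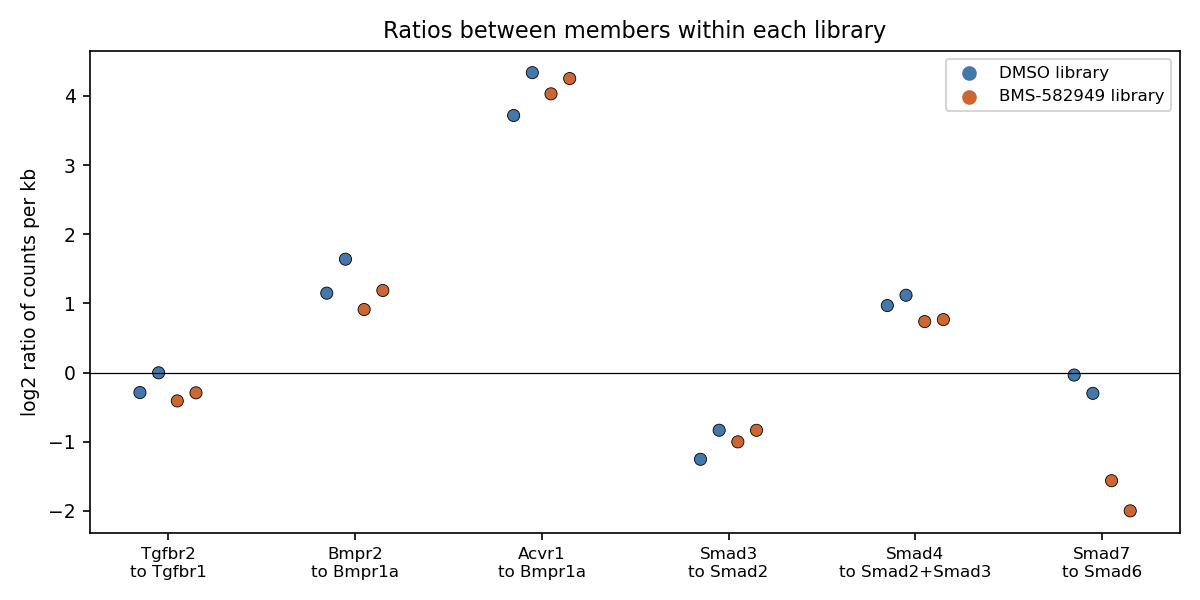
Log2 ratio of counts per kilobase of exon for 6 pairs of members (y axis), 1 point per library, DMSO in blue and BMS-582949 in orange. The Smad7 to Smad6 points fall from -0.04 and -0.30 in DMSO to -1.56 and -1.998 with the compound, while in the other pairs the groups overlap or lie close.

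Levels were compared between genes as TMM-scaled CPM per kilobase of merged exons. In DMSO the TGF-beta receptors led, with Tgfbr1 at 48.5 ± 2.68 and Tgfbr2 at 43.9 ± 3.71 CPM per kilobase (SD, n = 2), and they were followed by Smad4 (8.80 ± 0.977) and Acvr1 (7.51 ± 0.355). Smad2, Smad6 and Smad7 lay close together at 2.86, 2.67 and 2.38, and Smad3, Bmpr2 and Bmpr1a were lowest at 1.399, 1.21 and 0.468 CPM per kilobase. Neighbours in this order did not overlap over their 2 libraries, but the gap was narrower than the range of either gene for Tgfbr1 and Tgfbr2, Smad4 and Acvr1, Smad2 and Smad6, and Smad6 and Smad7, and the ranges of Smad3 and Bmpr2 nearly touched (1.225 and 1.224). With BMS-582949 the order of the first 4 and of the last 2 was the same, and the span was narrower, since Tgfbr1 was at 16.5 ± 0.380 and Tgfbr2 at 12.9 ± 0.443 beside Smad4 at 10.4 ± 0.0593 CPM per kilobase. Smad6 (5.43 ± 0.231) then stood above Smad2 (4.03 ± 0.195), and Smad3 (2.13 ± 0.0714) above Smad7 (1.59 ± 0.272). The order depends on the length used: with the longest transcript in place of merged exons, Acvr1 stood above Smad4 in both groups, Bmpr2 (1.69) stood above Smad3 (1.52) in DMSO, and Acvr1 also stood above Tgfbr2 in treated libraries. In all, 4 members changed rank in DMSO and 3 with BMS-582949.

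**Figure D4:**
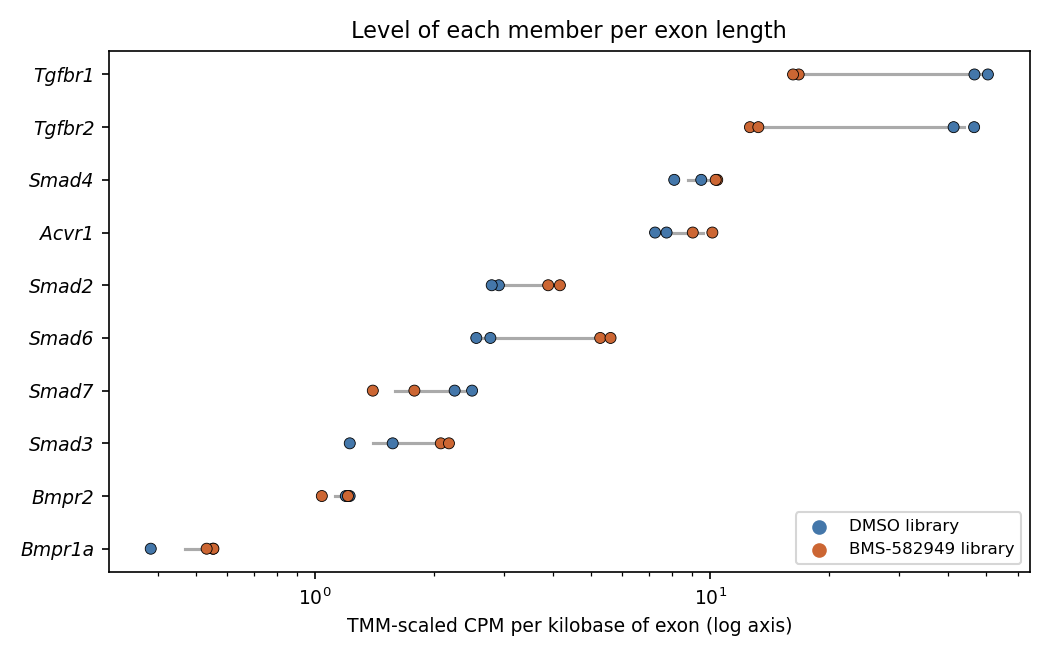
TMM-scaled CPM per kilobase of merged exons (log x axis) for each member, ordered by its DMSO mean, with 1 point per library and a grey line between group means. Tgfbr1 and Tgfbr2 move left from above 40 to below 17, towards the levels of Smad4 and Acvr1 near 10.

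Tgfbr2 had the largest change among called members, and the genes with the most similar profile over the 4 libraries were sought among those with a mean of at least 10 CPM (Euclidean distance of centred log2 CPM). The nearest were Pde8b, a phosphodiesterase gene (distance 0.037), Sema7a, a semaphorin gene (0.058), and Anpep, which encodes aminopeptidase N (0.075). Anpep stood at 374 ± 23.9 CPM in DMSO and 105 ± 4.31 CPM with the compound, close to Tgfbr2 also in level. With 4 libraries in 2 groups, such likeness mostly reflects a similar fold change.

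The rest of the pathway was read from 7 lists by role, holding 141 genes besides the members, of which 108 were tested. Of these 41 were called higher and 27 lower, or 63.0% called, with a median log2 fold change of 0.22 (all tested genes 0.03). With library size only the split was 65 higher and 15 lower, with a median of 0.60. The share called was again near the 60.2% of all tested genes. Hgs, on the list of intracellular regulators, was left out because 2 overlapping models carry that symbol.

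Of 31 ligand genes 13 were tested, and 4 were called higher and 2 lower (median 0.46). Tgfb1, the main TGF-beta ligand gene, was at 255 and 262 CPM under DMSO against 231 and 265 CPM in treated libraries, and was not called (log2 fold change -0.06 ± 0.07 SE, edgeR adjusted p = 0.49). Its sign turned with library size only, where it was called higher (0.32). Among the low-level ligands, the TGF-beta family gene Gdf3 rose by 1.00 (log2) from 6.86 ± 1.27 CPM, Tgfb3 by 0.78 from 10.4 ± 1.97 CPM and the activin subunit gene Inhba by 0.60 from 4.81 ± 0.390 CPM. The fourth called higher was Gdf15 (0.59). Inhbb, another activin subunit gene, went from 8.46 to 6.11 CPM (-0.47), a call that ended when DMSO replicate 1 or BMS-582949 replicate 2 was left out (adjusted p = 0.11 in each), with library size only (0.66) and with the trend on GC content and length removed (0.20). Bmp5 was the other ligand called lower, from 41 and 17 counts to 6 and 2, and is named here after its values were seen. Exons overlap those of another model over 46.7% of their length for Bmp5 and 12.4% for Tgfb3. With library size only, 8 ligands were called higher and 1 lower.

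Among 14 tested genes of other receptors, co-receptors and activators, 7 were called higher and 3 lower (median 0.32, and 8 and 2 with library size only). Acvr2a, an activin and BMP type II receptor gene, was at 6.11 and 7.67 CPM in DMSO and at 17.1 and 17.7 CPM in treated libraries, a clear separation (log2 fold change 1.34 ± 0.14 SE, edgeR adjusted p = 4.2e-06, exon overlap with another model 7.84%). Eng, which encodes the co-receptor endoglin, rose by 0.59 and the integrin gene Itgb5 by 0.70. Itgav, the integrin alpha v gene whose product takes part in releasing TGF-beta from its latent form, fell by 0.90 on the log2 scale, from 349 ± 13.6 to 187 ± 1.86 CPM, and the BMP co-receptor gene Rgmb fell by 0.72. Of the BMP-regulated Smads, Smad1 (19.0 and 19.1 CPM against 18.0 and 17.4) and Smad5 (16.9 and 19.4 against 21.5 and 20.5) were not called (edgeR adjusted p = 0.43 and 0.14). Smad9 was called higher from 0.740 and 1.01 CPM to 1.90 and 1.80 CPM (1.07), which rests on 23 to 86 counts per library. That call ended when any library other than DMSO replicate 2 was left out and with DESeq2 (adjusted p from 0.063 to 0.12). With library size only, all 3 were called higher.

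Extracellular regulators moved both ways, with 5 called higher and 7 lower of 19 tested (median 0.11, and 10 higher and 4 lower with library size only). The serine protease genes Htra1 and Htra3 went in opposite directions: Htra1 rose from 27.7 ± 0.114 to 61.8 ± 0.814 CPM (1.16), and Htra3 fell from 24.9 ± 0.422 to 2.97 ± 0.587 CPM (-3.06). So did the latent TGF-beta binding protein genes, with Ltbp2 rising from 17.7 ± 0.752 to 37.0 ± 2.52 CPM (1.07, exon overlap 9.34%) and Ltbp3 falling from 152 ± 18.1 to 30.9 ± 0.740 CPM (-2.30). Twsg1, a BMP-binding protein gene, fell by 1.18 on the log2 scale, from 125 ± 4.44 to 54.9 ± 2.03 CPM.

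Intracellular regulators had 16 called higher and 10 lower of 39 tested (median 0.18, and 27 and 4 with library size only). Dab2, an endocytic adaptor that binds TGF-beta receptors and Smads, rose most, from 55.7 and 63.6 CPM to 230 and 234 CPM, a log2 fold change of 1.96 ± 0.07 (SE, edgeR adjusted p = 4.9e-10). The Smad co-repressor genes Ski and Skil rose by 0.83 and 0.79. Vps39, a vesicle-tethering gene, fell by 1.73 on the log2 scale, the phosphatase subunit gene Ppp1r15a by 1.65, and Zfyve9, which encodes the Smad anchor SARA, by 1.57 from 9.26 ± 0.504 CPM (exon overlap 10.9%). Map3k7, the gene of TAK1, was at 39.6 and 35.8 CPM in DMSO and 41.4 and 42.0 CPM in treated libraries and was not called (edgeR adjusted p = 0.19, a gene named after its values were seen). Mapk14, which encodes the drug's target p38α, rose by 0.58.

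Of 18 genes listed as TGF-beta targets, all of them tested, 10 were called higher and 5 lower (median 0.44, and 11 and 3 with library size only). Tgfbi, an extracellular matrix protein gene, rose from 103 and 117 CPM to 550.2 and 557 CPM, the largest change of the list (log2 fold change 2.33 ± 0.07 SE, edgeR adjusted p = 1.3e-10). Ccn2, a matricellular protein gene, rose by 1.05. Exons of Ccn2 overlap another model over 23.2% of their length. In the other direction the transcription factor gene Bhlhe40 fell by 1.52 on the log2 scale, the cell cycle inhibitor gene Cdkn2b by 1.45 and the collagen gene Col1a1 by 0.56, from 315 ± 13.4 to 213 ± 1.66 CPM. Col1a1 is also on the stromal marker list given above. Of 12 tested BMP targets 4 were called higher and 2 lower (median -0.05, 0.34 with library size only). Id1 (0.66) and Id3 (0.59), which encode inhibitors of helix-loop-helix factors, rose, and Id2 missed the threshold (33.4 and 34.2 CPM against 39.2 and 39.7, edgeR adjusted p = 0.051). Grem1, a BMP antagonist gene, was called lower at 2.86 ± 0.459 to 1.51 ± 0.203 CPM, a call that ended when DMSO replicate 1 (adjusted p = 0.12) or BMS-582949 replicate 2 (0.062) was left out and with library size only (0.14).

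**Figure D5:**
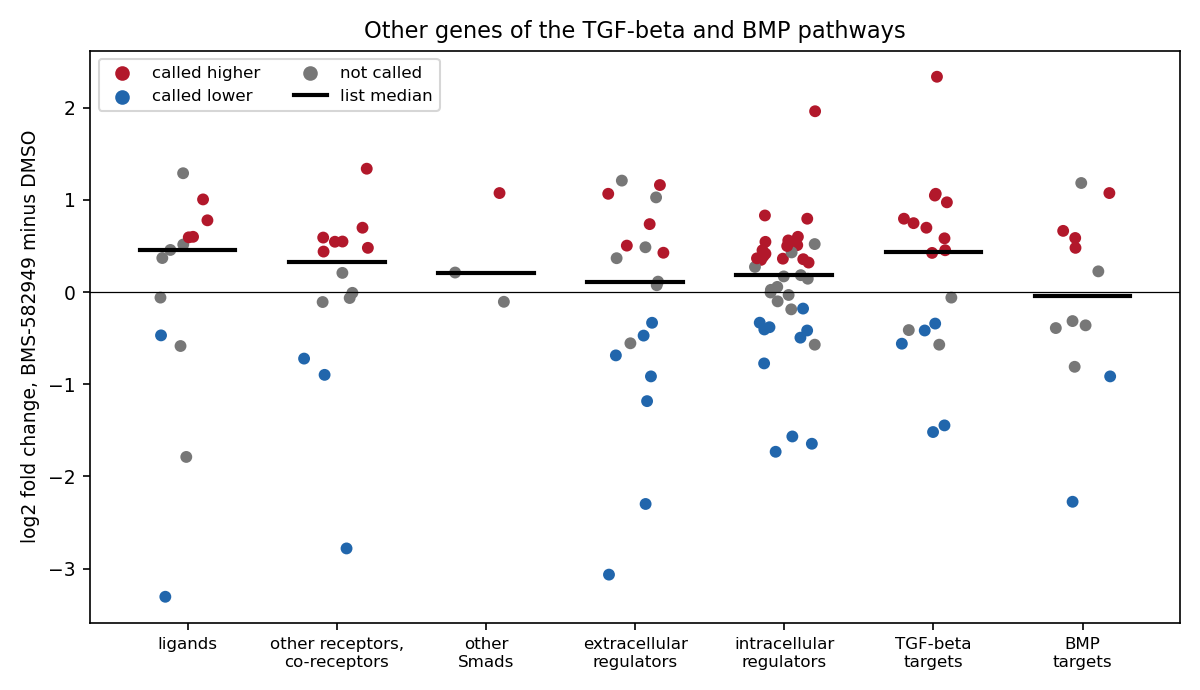
Log2 fold change (y axis, BMS-582949 minus DMSO) of every tested gene of the 7 pathway lists, red where called higher, blue where called lower and grey where not called, with the list median as a black bar. Called genes lie on both sides of 0 in each list except the other Smads, and Tgfbi (2.33) and Dab2 (1.96) are the highest called points. The lowest point, Bmp5, rests on 2 to 41 counts per library.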

How the data were processed

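RNA of mouse osteoclast cultures was sequenced in 4 libraries. The authors deposited raw counts per gene model (whole numbers with unequal column sums), and the submitters' processing notes list Trimmomatic 0.36, HISAT2 2.0.4, DESeq2 1.30.1 and GRCm38. Counting tool, annotation and strand setting: not given in the sources used here. Groups came from the treatment label, since the titles of the treated samples transpose digits of the compound's name and the treatment protocol names the compound for every sample. Symbols for 22022 of 22036 Ensembl identifiers, coordinates and exon lengths came from GENCODE M21.

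Counts were filtered (filterByExpr, minimum count 10), TMM-scaled and tested with edgeR 4.0.16 (R 4.3.3) by the quasi-likelihood F test with 2 residual degrees of freedom and Benjamini-Hochberg adjustment over 13214 genes. The fit was tested on simulated data in which few genes changed, equally many up and down. That setting does not check the scaling. Libraries of a group differed beyond counting noise (chi-square per degree of freedom 9.62 in DMSO and 13.7 with BMS-582949) and were kept as separate samples. Alternatives were other scalings (RLE, upper quartile, library size only), no filter, DESeq2 1.42.0, a 1 CPM filter, voom with limma 3.58.1, an adjusted p under 0.01, glmTreat against 1.5-fold, leaving out each library in turn and a replicate block. A crossed block and a loess correction (span 0.3) for exon length and GC content were added after seeing the data. Besides the members, the text names up to 3 called genes per direction and pathway list (largest changes, groups apart, mean CPM 1 or more), the 3 genes nearest in profile to the most changed member, and 9 genes whatever their result, except that some items are not reported here. Members and lists were chosen with earlier results of these data known.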

Additional observations from a re-analysis of the deposited data

How the results depend on the processing

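Of 140 comparisons of a member's log2 fold change with an alternative fit, 131 kept their direction and their side of the threshold, 5 became called (all Smad4), 2 lost the call (both Smad7) and 2 changed sign: Bmpr1a without DMSO replicate 2, where fits without 1 library gave -0.0233 to 0.50, and Bmpr2 with library size only (0.28). Library size only also turned the sign of Tgfb1 (0.32) and Smad1 (0.28), and Tgfb1 changed sign with the GC and length trend removed (0.0071) and across fits without 1 library (-0.18 to 0.0315). With library size only, 65 pathway genes were called higher and 15 lower, and 6738 of all tested genes higher and 2240 lower. Against a 1.5-fold change, glmTreat called 1 member higher (Smad6) and 2 lower (Tgfbr1 and Tgfbr2), and 1572 of all genes higher and 1824 lower. At an adjusted p under 0.01, 4 members were called higher and 3 lower.

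The log2 ratio of Acvr1 to Bmpr1a differed between groups by 0.11 with all libraries and by -0.20 to 0.42 without 1 library, and that of Smad3 to Smad2 by 0.13 and by -0.0847 to 0.34. With the replicate block 4 members were called higher and 3 lower, as without it, and 3923 and 3830 of all genes. The numbers share no stated source, and deviations of same-numbered libraries from their group means correlated at -0.13 across genes. With the crossed replicate block the counts were 5 and 3 for members and 4163 and 4038 for all genes. Averaging log2 ratio differences within same-numbered libraries gives the same values by arithmetic, so it is no check of pairing. Depth limits Bmpr1a and Smad9, at 23 to 159 counts per library.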
